A study of Mus musculus with 9 samples.

Results

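Interferon-stimulated genes are the genes that cells switch on when an interferon binds its receptor. Type I interferons act through the receptor chains IFNAR1 and IFNAR2, the kinases JAK1 and TYK2 and a complex that holds STAT2 and IRF9, which binds the interferon-stimulated response element in the promoters of its targets. Interferon gamma acts through IFNGR1, IFNGR2, JAK1 and JAK2 and is known for inducing the guanylate-binding proteins, the immunity-related GTPases and the antigen processing machinery. In the uterus, interferon gamma from natural killer cells acts on the maternal vessels, and the epithelium makes a type I interferon of its own, interferon epsilon.

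The 39 interferon-stimulated genes described here were taken by symbol from the 31274 entries of an expression table of the mouse uterus, and all 39 had an entry. They comprised 29 genes known as type I induced, 7 GTPases known as targets of interferon gamma and 3 genes of antigen processing. Of all entries, 14728 had a mean above 1 FPKM (fragments per kilobase of transcript, scaled to the mapped fragments of the library) in at least 1 genotype and were tested, and all 39 members were among them.

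RNA-Seq was performed on the whole uterus of C57BL/6 mice at pseudopregnancy day 4.5, the receptive phase, after mating to vasectomized males, so that no embryo was present. The 4 controls, Wnk1f/f, carried floxed alleles of Wnk1, a kinase of the WNK family, with loxP sites around exon 2. In the 5 Wnk1d/d uteri the same alleles were recombined by a Cre driven from the progesterone receptor gene, which is also active in the ovary and pituitary. The study mated virgin mice of 6 to 10 weeks, and each library came from 1 mouse. Wnk1 lay between 43.4 and 47.3 FPKM in the controls and between 29.9 and 33.9 FPKM in the Wnk1d/d uteri, with a log2 fold change of -0.52 (SE 0.06, limma adjusted p = 0.0017), so every library matched its label. Only exon 2 is deleted, and the FPKM covers the whole gene.

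The number of sequenced fragments per library is unknown, since the table holds FPKM only. Between 19253 and 20063 entries per library were above 0, and the median log2(FPKM + 1) of the tested genes lay between 3.79 and 3.82. The most abundant entry accounted for 70.3% of all FPKM in Wnk1d/d replicate 4 and for at most 13.8% in any other library. None of the 7 stromal, 8 epithelial and 8 smooth muscle markers was at 0 in any library, as a whole uterus should have it. The smooth muscle markers were all 8 higher in the Wnk1d/d uteri, and 7 of the 10 endothelial markers were lower (limma adjusted p under 0.05). Of the 7 stromal markers 4 were lower and 2 higher, and of the 8 epithelial markers 2 were higher and 0 lower. Among all tested genes 11.1% were higher and 11.0% lower. In a bulk tissue, fewer cells of a type and less RNA per cell cannot be told apart.

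The response element is the sequence that the type I induced promoters are known for. The stretch with a match to its core is shown for some of the members that have it before the start. Gbp2, Irgm1, Irgm2, Oas3 and Stat2 also have a match there and are not shown. Promoters were taken from RefSeq (GRCm38.p6, 250 bases before to 50 after each start). Of the 39 members, 30 had a promoter in that table, so that the shares below describe these 30 and are void as a check on all members. No entry matched Iigp1, Usp18, Parp14, Rtp4, Zbp1, Dhx58, Oas2, Mx1 or Mx2. The core searched was GAAA, any 2 bases and GAAA again, on either strand, so that it reads TTTC, 2 bases and TTTC on the other. The core was present in 16 of the 30 promoters (53.3%), against 3.99% of the 27025 genes of the table. It was found in 10 of 21 type I induced genes, in 6 of 6 GTPases and in 0 of 3 antigen processing genes. In 14 of the 16 the core lay before the start. The gamma-activated site, searched as TTC, any 3 bases and GAA, which can overlap the core, was present in 9 of the 30 promoters, against 9.55% of the genes of the table. Each line below gives 30 bases, 5′ to 3′ on the strand of the gene, with the core in capitals. These are matches of letters and were not assayed for binding.
Isg15 (chr4:156200871-156200900, minus strand): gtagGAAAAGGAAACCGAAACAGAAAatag
Oas1a (chr5:120907526-120907555, minus strand): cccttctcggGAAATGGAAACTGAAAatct
Ifit1 (chr19:34640785-34640814, plus strand): TTTCACTTTCcagtctcagTTTCAGTTTCt
Ifit3 (chr19:34583397-34583426, plus strand): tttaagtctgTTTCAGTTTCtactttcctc
Rsad2 (chr12:26456553-26456582, minus strand): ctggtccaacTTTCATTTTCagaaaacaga
Bst2 (chr8:71537580-71537609, minus strand): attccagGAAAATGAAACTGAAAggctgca
Gbp3 (chr3:142559992-142560021, plus strand): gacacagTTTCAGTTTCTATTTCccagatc
Gbp7 (chr3:142530273-142530302, plus strand): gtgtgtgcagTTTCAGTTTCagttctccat
Igtp (chr11:58199512-58199541, plus strand): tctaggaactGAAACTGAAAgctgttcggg

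Isg15 held 3 overlapping cores in this stretch, and Oas1a, Bst2 and Gbp3 held 2 that overlap. Ifit1 held 2 that do not overlap. The core of Igtp ended 25 bases before its start and that of Bst2 115 bases before its own, so the distance to the start differed among members.

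The first question was whether the members as a whole differed between Wnk1d/d and Wnk1f/f uteri. No member passed the test in either direction, where 22.1% of all tested genes did (11.1% higher and 11.0% lower in Wnk1d/d; limma on log2(FPKM + 1), adjusted p under 0.05 over all tested genes). At an unadjusted p under 0.05 there was 1 member, Bst2, against 38.4% of all tested genes. The libraries of the 2 genotypes overlapped for every member, while 19.9% of the tested genes showed no overlap. The members' log2 fold changes, Wnk1d/d against Wnk1f/f, were positive for 19 and negative for 20, with a median of -0.03, beside a median of 0.003 over all tested genes. The adjusted p ranged from 0.072 to 0.998. When a single library was left out, the median of the members lay between -0.34 (without Wnk1f/f replicate 1) and 0.24 (without Wnk1f/f replicate 2).

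The intervals of these differences were wide. The 95% confidence interval of a member's log2 fold change spanned a median of 1.78, against 0.48 over all tested genes. For 22 of the 39 members the interval still included a 2-fold change in at least 1 direction, and for 17 it did not. Of those 22, only Bst2 had an interval that did not include 0, before adjustment over all genes. For the others a change of that size could not be told from none at this spread between mice.

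**Figure D1:**
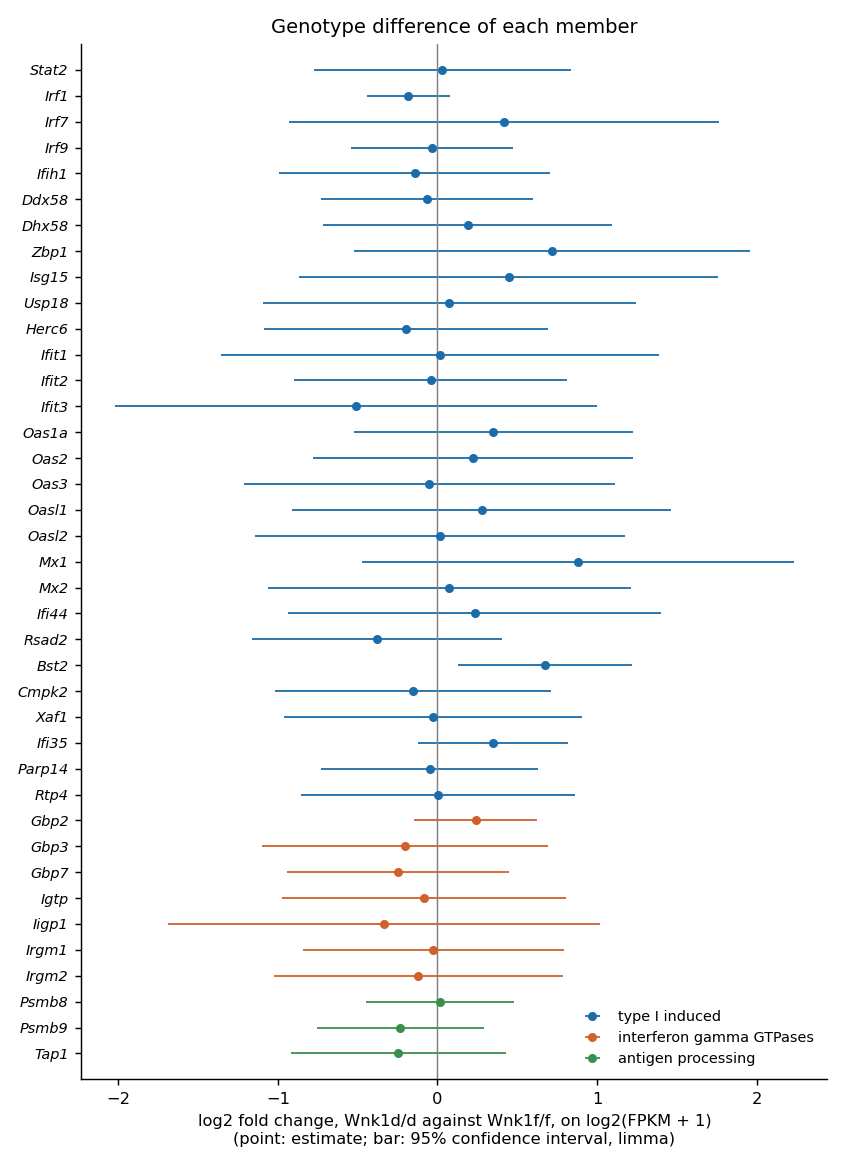
Log2 fold change of each of the 39 members on log2(FPKM + 1), Wnk1d/d against Wnk1f/f, with the 95% confidence interval from limma as a bar and the class as the colour. The estimates run from -0.51 for Ifit3 to 0.88 for Mx1, and the interval of Bst2 alone does not include 0, before adjustment over all genes.

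The 29 type I induced genes had a median log2 fold change of 0.02, with 17 positive and 12 negative. The median turned negative without Wnk1f/f replicate 1 (-0.28), Wnk1d/d replicate 2 (-0.21) or Wnk1d/d replicate 5 (-0.007). Values are given in the order of the replicates. Among the genes that carry or amplify the signal, Irf7, the factor that drives the later wave of interferon production, had a mean of 105 ± 71.8 FPKM (SD, n = 4) in the controls and 131 ± 79.9 FPKM (SD, n = 5) in the Wnk1d/d uteri. The control values of Irf7 were 27.0, 198, 80.9 and 114 FPKM and the Wnk1d/d values 119, 261, 103, 43.4 and 129 FPKM. The highest control was thus 7.36 times the lowest, and the genotypes overlapped over most of their range. Its log2 fold change of 0.42 (SE 0.60, adjusted p = 0.639) turned to -0.12 without Wnk1f/f replicate 1. Stat2, a subunit of the type I complex, averaged 40.2 ± 17.5 and 40.0 ± 15.4 FPKM, and Irf9, its DNA-binding partner, 61.7 ± 19.2 and 59.3 ± 13.5 FPKM. Irf1, a factor that both interferon types induce, was the steadiest member, at 52.0 ± 9.64 and 45.3 ± 3.63 FPKM (log2 fold change -0.18, 95% interval -0.44 to 0.08). The exons of Irf9 overlap those of Rnf31, and the exons of Irf7 those of Phrf1, so reads there may be shared.

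The sensors of foreign nucleic acid did not pass the test. Ifih1, which encodes the double-stranded RNA sensor MDA5, averaged 8.37 ± 3.19 FPKM in the controls and 7.81 ± 4.55 in the Wnk1d/d uteri. Ddx58, which encodes the sensor RIG-I, averaged 37.7 ± 16.3 and 34.4 ± 9.63 FPKM, and Dhx58, the related helicase LGP2, 18.9 ± 9.41 and 21.5 ± 11.3 FPKM. Zbp1, a sensor of Z-form nucleic acid that can start cell death, had control values of 5.27, 56.4, 27.9 and 32.01 FPKM, a 10.7-fold range and the widest of any member within the controls. In the Wnk1d/d uteri Zbp1 gave 45.7, 56.7, 34.3, 23.7 and 41.4 FPKM. The low control set most of the difference of Zbp1, whose log2 fold change of 0.72 (SE 0.55, adjusted p = 0.361) became 0.07 without Wnk1f/f replicate 1.

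Isg15, a ubiquitin-like protein that is joined to other proteins during the response, lay on chr4:156199424-156200818 (mm10, GENCODE M21). Its control values were 29.1, 244, 86.2 and 85.5 FPKM and its Wnk1d/d values 109, 239, 117, 49.3 and 143 FPKM. The top values of the genotypes lay close together, and the log2 fold change was 0.45 (SE 0.58, adjusted p = 0.601). It turned to -0.06 without Wnk1f/f replicate 1 and was 0.95 without Wnk1f/f replicate 2. Usp18, the protease that removes ISG15 and restrains the receptor, averaged 39.1 ± 26.0 and 37.4 ± 18.8 FPKM. Herc6, the mouse ligase for ISG15, averaged 7.43 ± 2.89 and 6.81 ± 4.33 FPKM and was the lowest of the 39 in mean level.

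The IFIT proteins bind foreign RNA and block its translation. Ifit3 (chr19:34583531-34588731) had the lowest log2 fold change of all members, -0.51 (SE 0.67, adjusted p = 0.605, exact permutation p = 0.579). It read 36.0, 97.7, 21.9 and 81.0 FPKM in the controls and 29.95, 121, 34.9, 8.97 and 43.6 FPKM in the Wnk1d/d uteri. The highest Wnk1d/d value of Ifit3 was 13.5 times the lowest, and the control values lay inside that range. The log2 fold change of Ifit3 was -0.05 without Wnk1d/d replicate 4 and -0.95 without Wnk1d/d replicate 2. Ifit1 averaged 38.2 ± 25.5 and 37.0 ± 24.6 FPKM, and Ifit2 9.04 ± 4.11 and 9.07 ± 5.48 FPKM. The genes of this family resemble each other, so their shares of reads are uncertain, and the same holds for the OAS, GBP and IRGM families.

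The OAS genes encode synthetases whose product activates RNase L, and related proteins. Their log2 fold changes ran from -0.05 for Oas3 to 0.35 for Oas1a, with 4 of 5 positive and none past the test. Oas1a averaged 32.1 ± 16.8 FPKM in the controls and 39.6 ± 15.9 in the Wnk1d/d uteri, Oas2 91.4 ± 57.4 and 97.6 ± 38.98, and Oas3 9.80 ± 5.47 and 10.1 ± 7.71. Oasl1, which represses the translation of Irf7, averaged 9.38 ± 6.98 and 11.1 ± 6.96 FPKM, and Oasl2 83.6 ± 51.0 and 82.4 ± 48.5 FPKM.

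The MX proteins are known as dynamin-like GTPases that trap viruses. Only RNA was measured, and whether these mice make a working MX protein was not tested. Mx1 (chr16:97447035-97462907) had the highest log2 fold change of all members, 0.88 (SE 0.60, 95% interval -0.47 to 2.23). Its control values were 1.86, 18.3, 7.18 and 8.38 FPKM and its Wnk1d/d values 17.0, 30.6, 15.5, 3.94 and 14.5 FPKM. Of the Wnk1d/d libraries 1 lay below 3 of the controls, and the difference did not pass the test (adjusted p = 0.305, exact permutation p = 0.286), although the ratio of the means was 1.83. The log2 fold change of Mx1 was 0.38 without Wnk1f/f replicate 1 and 1.30 without Wnk1f/f replicate 2. A ratio of at least 1.5 in either direction, which the study asked of its differential genes, was reached by 2 members, Mx1 and Bst2, and together with the test by none, against 10.3% of all tested genes. Mx2 averaged 17.9 ± 11.6 and 18.5 ± 11.5 FPKM.

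Among the other effectors, Bst2 came closest to a difference. Bst2 (chr8:71534255-71537456) encodes tetherin, which holds budding viruses at the cell surface, and was the most abundant member on the FPKM scale. It read 322, 725, 451 and 563 FPKM in the controls and 817, 1056, 798, 565 and 777 FPKM in the Wnk1d/d uteri. The means were 515 ± 171 and 803 ± 174 FPKM, and 4 of the 5 Wnk1d/d libraries lay above every control. The log2 fold change was 0.67 (SE 0.24, 95% interval 0.13 to 1.22), with an adjusted p of 0.072 from limma and an exact two-sided permutation p of 0.048. Bst2 passed the test without Wnk1f/f replicate 2 (0.86, adjusted p = 0.039) and with library weights (0.71, adjusted p = 0.042). Over all alternatives its adjusted p ran from 0.039 to 0.192.

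The remaining effectors gave no difference past the test. Ifi35 averaged 64.8 ± 22.2 and 80.0 ± 12.6 FPKM (log2 fold change 0.35, adjusted p = 0.247). Rsad2, which encodes viperin, averaged 14.9 ± 5.69 and 11.7 ± 6.86 FPKM (-0.38, adjusted p = 0.448), and Cmpk2, its neighbour on chromosome 12 and a nucleotide kinase, 13.3 ± 6.34 and 11.9 ± 6.53 FPKM. Ifi44 averaged 20.5 ± 11.2 and 25.5 ± 18.1 FPKM. Xaf1, which is known as an antagonist of an apoptosis inhibitor, averaged 89.4 ± 46.6 and 81.9 ± 34.8 FPKM. Parp14, an ADP-ribosyltransferase, averaged 24.9 ± 8.005 and 24.4 ± 9.71 FPKM, and Rtp4 50.6 ± 24.1 and 49.8 ± 22.2 FPKM.

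The 7 GTPases known as targets of interferon gamma had a median log2 fold change of -0.12, with 1 positive and 6 negative, and none passed the test. The median turned positive without Wnk1f/f replicate 2 (0.07), Wnk1f/f replicate 4 (0.13) or Wnk1d/d replicate 4 (0.10). The positive one was Gbp2 (chr3:142620602-142638008), a guanylate-binding protein that gathers on the vacuoles of intracellular microbes. Gbp2 read 19.0, 31.4, 30.7 and 33.8 FPKM in the controls and 30.9, 40.0, 33.5, 27.0 and 36.6 FPKM in the Wnk1d/d uteri (0.24, SE 0.17, adjusted p = 0.326). Without the low first control the log2 fold change of Gbp2 was 0.06. Gbp3 averaged 45.4 ± 19.98 and 39.03 ± 20.1 FPKM, and Gbp7 13.3 ± 4.60 and 11.2 ± 5.16 FPKM.

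Iigp1, an immunity-related GTPase on chromosome 18, had the lowest log2 fold change of this class, -0.34 (SE 0.60, adjusted p = 0.710). It read 6.24, 27.7, 11.9 and 49.1 FPKM in the controls and 10.95, 32.8, 17.7, 5.30 and 15.9 FPKM in the Wnk1d/d uteri. Both genotypes ran from about the same low value to a high one, with the highest in the fourth control, and without that control the log2 fold change was 0.13. Irgm1 (chr11:48861968-48871683), which regulates the other immunity-related GTPases, was the most abundant of the class, with 29.8, 89.1, 59.1 and 85.8 FPKM in the controls and 62.5, 102, 57.5, 33.7 and 60.2 FPKM in the Wnk1d/d uteri. Its log2 fold change was -0.03 (SE 0.37, adjusted p = 0.965). Igtp averaged 42.8 ± 21.1 and 37.4 ± 12.1 FPKM and Irgm2 19.4 ± 9.94 and 16.7 ± 6.18 FPKM. Their annotated exons overlap on the same strand, so reads of one may be counted for the other.

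The 3 antigen processing genes had a median log2 fold change of -0.23, and none passed the test. Psmb8 and Psmb9 encode subunits of the immunoproteasome, and Tap1 a subunit of the peptide transporter that feeds MHC class I. Psmb8 (chr17:34197721-34201454) read 57.0, 122, 95.2 and 111 FPKM in the controls and 89.7, 110, 101, 75.7 and 95.7 FPKM in the Wnk1d/d uteri (0.01, SE 0.21, adjusted p = 0.969). Tap1 (chr17:34187553-34197225) read 24.0, 52.9, 35.7 and 66.2 FPKM in the controls and 34.3, 50.5, 36.6, 22.0 and 37.2 FPKM in the Wnk1d/d uteri (-0.25, SE 0.30, adjusted p = 0.57). The lowest library of each gene was either the first control or the fourth Wnk1d/d. Psmb9 averaged 63.4 ± 20.01 and 52.6 ± 10.7 FPKM and shares exonic sequence with Tap1 on the opposite strand. All 3 intervals of this class stayed within a 2-fold change in both directions.

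The members varied far more between mice of 1 genotype than other genes did. The SD within genotype of log2(FPKM + 1) had a median of 0.69 over the members, against 0.16 over all tested genes. It was above that all-gene median for 39 of 39 members and above the 90th percentile of all tested genes, 0.37, for 35. The 4 members under the 90th percentile were Irf1 (0.19), Gbp2 (0.29), Psmb8 (0.35) and Ifi35 (0.36), and the highest was Ifit3 (1.17). The highest library exceeded the lowest by a median of 3.64-fold in the controls and 3.30-fold in the Wnk1d/d uteri, whereas the medians over 14545 genes above 0 in every library were 1.30 and 1.35. The members are known to be induced together, so the 39 values are not independent.

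**Figure D2:**
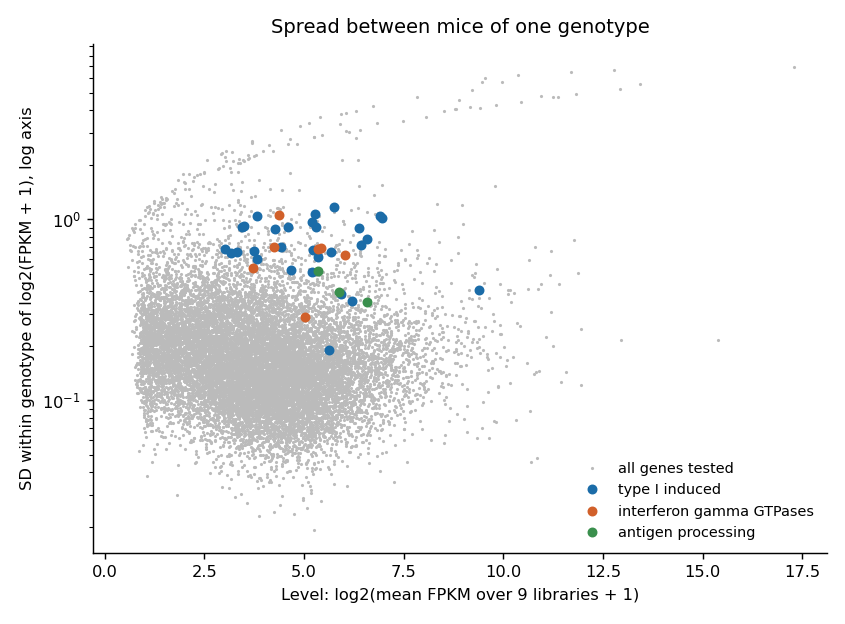
SD within genotype of log2(FPKM + 1), on a log axis, against the mean level, with all 14728 tested genes in grey and the members in the colour of their class. The members run from 0.19 for Irf1 to 1.17 for Ifit3, and 35 of the 39 lie above 0.37, the 90th percentile of all tested genes.

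The same libraries were low or high for nearly every member. Among the controls, replicate 1 was the lowest for 38 of 39 members, with Ifit3 as the exception, where replicate 3 was lowest. Among the Wnk1d/d uteri, replicate 4 was the lowest for 39 of 39 members and replicate 2 the highest for 38, with Psmb9 as the exception. Over all 9 libraries the lowest was Wnk1f/f replicate 1 for 27 members and Wnk1d/d replicate 4 for 12, so that each genotype held an extreme of this kind. Wnk1d/d replicate 2 was highest of all 9 for 26 members, Wnk1f/f replicate 2 for 7 and Wnk1f/f replicate 4 for 6.

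Expressed as the median deviation of the 39 members from their own means on the log2 scale, the controls stood at -0.99, 0.73, -0.06 and 0.24, and the Wnk1d/d uteri at 0.04, 0.92, -0.10, -0.82 and 0.07. One control and one Wnk1d/d uterus were low and one of each was high. Wnk1f/f replicate 4 was above the mean for 31 of 39 members, and the remaining 4 lay within 0.10 of 0. Wnk1d/d replicate 4 is also the library whose most abundant entry accounted for most of the FPKM. In Wnk1f/f replicate 1 the most abundant entry accounted for 8.35%. The median log2(FPKM + 1) of the tested genes was 3.79 in Wnk1d/d replicate 4 and 3.80 in Wnk1f/f replicate 1. The part of the abundant entry in the members' levels was not tested.

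**Figure D3:**
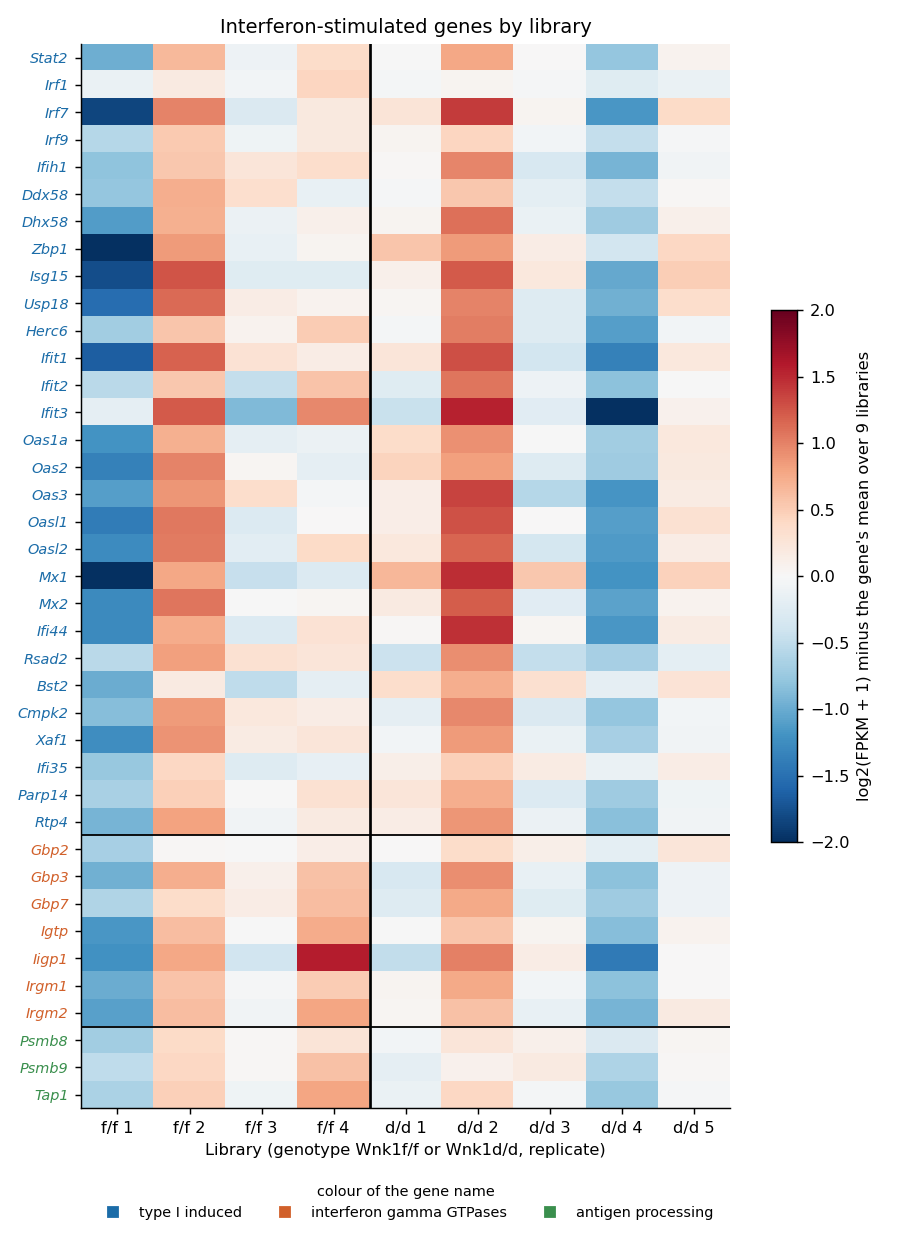
Deviation of each member (rows, names coloured by class) from its own mean over the 9 libraries on log2(FPKM + 1), with the colours ending at -2 and 2. Wnk1f/f replicate 1 and Wnk1d/d replicate 4 are below the mean (blue) for all 39 members, and Wnk1f/f replicate 2 and Wnk1d/d replicate 2 are above it (red) for all 39.

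The classes differed in which control was highest. For the type I induced genes it was replicate 2 in 27 of 29, the exceptions being Irf1 and Ifit2. For the GTPases it was replicate 4 in 5 of 7 (Gbp2, Gbp7, Igtp, Iigp1 and Irgm2), and for antigen processing in 2 of 3 (Psmb9 and Tap1). The median deviation of the type I induced genes was 0.81 in replicate 2 and 0.14 in replicate 4, whereas that of the GTPases was 0.61 in replicate 2 and 0.62 in replicate 4. Among the Wnk1d/d uteri no such split appeared, and replicate 2 was highest for 29 of 29 type I induced genes and 7 of 7 GTPases. These are single libraries, and the difference between classes was not tested.

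Of 6 lists of immune cell markers, 4 had their lowest sum, within each genotype, in the libraries in which the members were lowest. The summed FPKM of 9 natural killer cell markers was 104 in Wnk1f/f replicate 1 and 202 to 215 in the other controls, and 109 in Wnk1d/d replicate 4 and 139 to 171 in the other Wnk1d/d uteri. The sum of 5 T cell markers was 0.99, 2.05, 5.95 and 20.5 FPKM in the controls and 1.71, 2.28, 5.69, 0.63 and 2.85 FPKM in the Wnk1d/d uteri. The sum of 9 macrophage markers was 375, 464, 449 and 704 FPKM in the controls and 511, 516, 510, 382 and 504 FPKM in the Wnk1d/d uteri. Not every macrophage marker followed the sum: among the controls Csf1r, Lyz2, Mrc1 and Cd163 were lowest in replicate 2. None of the markers of these 3 lists was at 0 in any library. The sum of 4 B cell markers, the last of the 4 lists, was 1.24 FPKM in Wnk1f/f replicate 1 and 1.46 FPKM in Wnk1d/d replicate 4, against 1.55 to 3.44 FPKM in the other libraries. These B cell values are near the floor: only 1 of the 4 markers passed the filter, and Ms4a1 was at 0 in Wnk1d/d replicate 3. The other 2 lists ran differently. The sum of 5 dendritic cell markers was 10.99 FPKM in Wnk1f/f replicate 1, above the 7.96 FPKM of replicate 2, and the sum of neutrophil markers in Wnk1d/d replicate 4, 6.29 FPKM, was the highest of its genotype. Wnk1d/d replicate 2, the highest for the members, did not have the highest natural killer or T cell sum of its genotype, while its macrophage sum was the highest by little. Wnk1f/f replicate 4 had the highest T cell, macrophage, B cell, dendritic cell (15.8 FPKM) and neutrophil (8.93 FPKM) sums of all libraries. Its summed FPKM of 8 liver markers was 175, against 8.47 to 28.4 in the other libraries. The part of these markers in the members' levels was not tested.

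**Figure D4:**
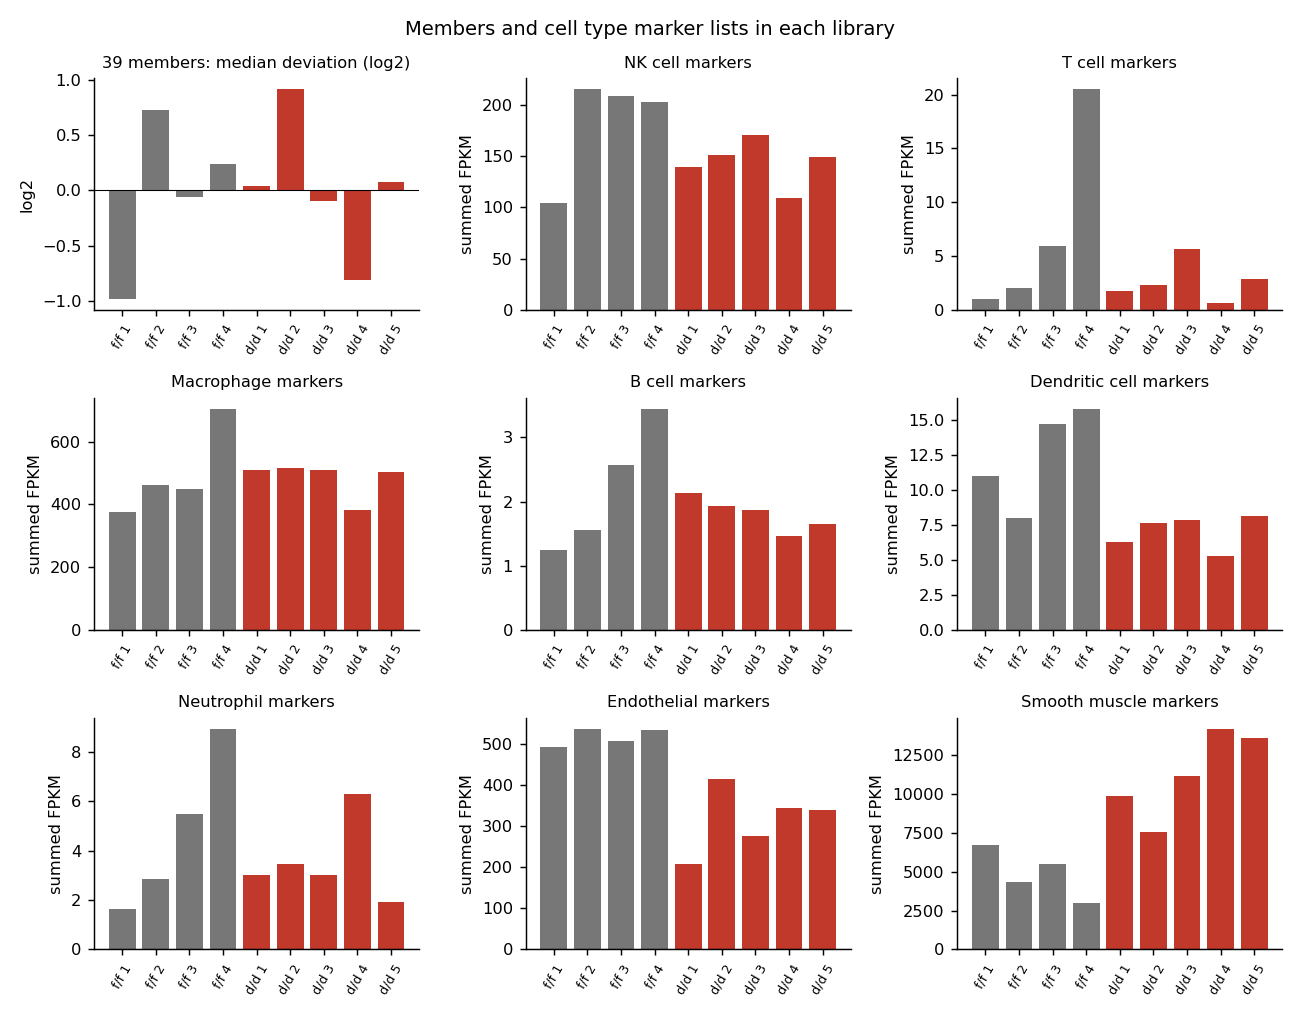
Median deviation of the 39 members (log2) and summed FPKM of 6 immune marker lists, endothelial markers and smooth muscle markers in each library, controls in grey and Wnk1d/d in red. Wnk1f/f replicate 1 and Wnk1d/d replicate 4 are lowest in their genotype for the members and for 4 of the 6 immune lists, the exceptions being dendritic cells and neutrophils, while the smooth muscle sum separates the genotypes.

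The second question was whether the interferons, their receptors and kinases differed, since these lie above the members. Of 21 interferon genes listed, 19 had an entry and 12 were listed at 0 in all 9 libraries, among them Ifnb1. A further 6 were above 0 in some library but under the filter, none above 0.67 FPKM. Ifng, the gene for interferon gamma, was under the filter, with 0.03, 0.16, 0.29 and 0.67 FPKM in the controls and 0.23, 0.14, 0.32, 0.20 and 0.43 FPKM in the Wnk1d/d uteri. Its lowest and highest libraries were both controls, replicate 1 and replicate 4, and its level was too low for a test.

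Ifne was the 1 interferon that passed the filter, and it was higher in the Wnk1d/d uteri. Ifne (chr4:88879538-88880201) encodes interferon epsilon, which the uterine epithelium makes under hormonal control. It read 1.06, 1.53, 0.84 and 2.02 FPKM in the controls and 16.1, 13.1, 5.10, 5.41 and 4.34 FPKM in the Wnk1d/d uteri. Every Wnk1d/d library was above every control, with a ratio of the means of 6.47. The log2 fold change was 1.91 (SE 0.36, 95% interval 1.102 to 2.72, limma adjusted p = 0.0088), and the exact permutation p of 0.0079 is the smallest that 4 against 5 libraries allow. Ifne is low on the FPKM scale, and adding 1 before the logarithm understates its change. The libraries with the most Ifne, Wnk1d/d replicates 1 and 2, were in the middle and at the top of their genotype for the members. Of 8 epithelial markers, 2 were higher and 0 lower in the Wnk1d/d uteri, with summed FPKM of 1102 to 1637 in the controls and 1238 to 1859 in the Wnk1d/d uteri, and their part in the level of Ifne was not tested.

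The receptor chains were steadier than the members, with an SD within genotype of 0.08 to 0.16 on the log2 scale. Of the 6 chains, 2 were lower in the Wnk1d/d uteri, beside 11.0% of all tested genes. Ifnar1 (chr16:91485238-91507441), the first chain of the type I receptor, fell from 41.7 ± 2.96 FPKM (SD, n = 4) to 31.8 ± 2.71 FPKM (SD, n = 5). Its libraries read 39.4, 39.6, 42.3 and 45.7 FPKM in the controls and 28.9, 36.1, 30.6, 31.0 and 32.6 FPKM in the Wnk1d/d uteri, with no overlap (log2 fold change -0.38, SE 0.08, limma adjusted p = 0.011). Ifnar2, the other chain, had a log2 fold change of -0.11 (adjusted p = 0.215), so that the fall of Ifnar1 was not seen in both chains, although the difference between them was not tested.

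Ifngr1 (chr10:19591949-19610229), the ligand-binding chain of the interferon gamma receptor, fell from 34.3 ± 2.66 to 27.0 ± 2.96 FPKM (-0.34, SE 0.09, limma adjusted p = 0.025). Its values were 31.7, 34.5, 33.1 and 37.9 FPKM in the controls and 31.98, 24.1, 25.9, 26.4 and 26.7 FPKM in the Wnk1d/d uteri, so that the first Wnk1d/d library overlapped the controls. The call was lost when any of 5 libraries was left out, namely Wnk1f/f replicate 2 or 4 or Wnk1d/d replicate 3, 4 or 5, with adjusted p values from 0.051 to 0.072. Ifngr2, the signalling chain, gave 0.13 (adjusted p = 0.347), and Ifnlr1, the chain specific to interferon lambda, -0.16 (adjusted p = 0.303). Il10rb, the chain that the lambda receptor shares with interleukin receptors, gave -0.25 (limma adjusted p = 0.060, exact permutation p = 0.0079) with no overlap between genotypes. Il10rb passed the test with library weights (-0.23, limma adjusted p = 0.041) and without Wnk1d/d replicate 2 (-0.27, limma adjusted p = 0.049). Over all alternatives its adjusted p ran from 0.041 to 0.238.

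Of the 3 JAK kinases of these receptors, 1 was higher, 1 was lower and Jak1 did not pass the test (-0.05, adjusted p = 0.644). Of all tested genes, 11.1% were higher and 11.0% lower. Jak2 (chr19:29251828-29313080), which also serves hormone and cytokine receptors, rose from 43.2 ± 2.52 to 62.2 ± 9.76 FPKM. It read 40.2, 46.0, 42.3 and 44.2 FPKM in the controls and 73.2, 72.4, 56.5, 52.9 and 56.1 FPKM in the Wnk1d/d uteri, with no overlap (0.51, SE 0.11, limma adjusted p = 0.014). Tyk2, the kinase bound to IFNAR1, had means of 17.7 ± 1.86 and 14.3 ± 1.6 FPKM (-0.30, SE 0.09, limma adjusted p = 0.048). Tyk2 passed the test by little, and leaving out any of 8 libraries, all but Wnk1d/d replicate 2, lost the call, with adjusted p values from 0.0501 to 0.129. It was also lost without the filter (0.065) and without the trend (0.054).

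**Figure D5:**
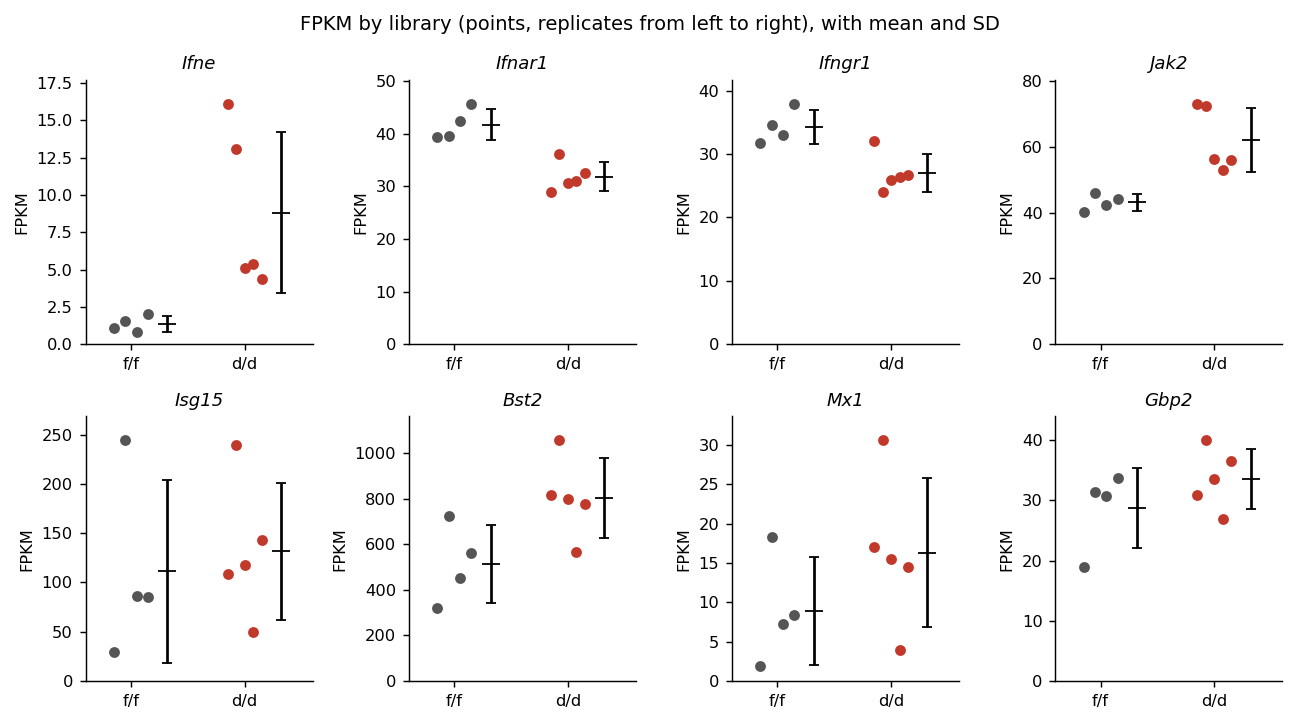
FPKM of Ifne, Ifnar1, Ifngr1 and Jak2 (upper row) and of the members Isg15, Bst2, Mx1 and Gbp2 (lower row) in each library, with the mean and SD beside the points. The genotypes separate without overlap for Ifne, Ifnar1 and Jak2, while each of the 4 members overlaps.

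The other genes of the pathway were read from lists chosen by function. Among 29 further interferon-stimulated genes tested, 1 was higher and 0 were lower, beside 11.1% and 11.0% of all tested genes. Their median log2 fold change was 0.01. The one was Isg20, a nuclease of single-stranded RNA, at 31.98, 95.7, 73.9 and 41.9 FPKM in the controls and 122, 109, 124, 92.8 and 111 FPKM in the Wnk1d/d uteri (0.99, SE 0.28, limma adjusted p = 0.034). The call of Isg20 was lost without Wnk1f/f replicate 1 or 4 and without Wnk1d/d replicate 1, 3, 4 or 5, with adjusted p values from 0.0506 to 0.097, and without the filter (0.054). Of 8 inhibitors of the pathway, Pias1, which restrains STAT proteins, was lower (15.2 ± 0.60 against 12.3 ± 1.06 FPKM, -0.28, limma adjusted p = 0.022), and none was higher. The call of Pias1 was lost without Wnk1f/f replicate 1 or 4 or Wnk1d/d replicate 3, with adjusted p values from 0.0505 to 0.062.

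None passed the test among 7 further GTPases of the interferon gamma response, 11 genes of the MHC class I pathway, 7 of MHC class II, 5 further interferon regulatory factors, 11 sensors and adaptors and 3 chemokines. The 7 further GTPases had a median of -0.30 with all 7 negative. The 7 MHC class II genes had a median of -0.66 with all 7 negative, and adjusted p values from 0.086 to 0.142. Wnk1f/f replicate 4 was the highest control for H2-Aa (496 FPKM, against 146 to 226) and Cd74 (749 FPKM, against 219 to 351). That library also had the highest sums of T cell, macrophage, B cell, dendritic cell, neutrophil and liver markers. Without it the MHC class II median was -0.34. Without Wnk1f/f replicate 1 the median was -0.90 and 1 gene passed the test, Cd74 (-0.98, limma adjusted p = 0.045, named after its value was seen). All 4 dendritic cell markers tested were negative too, and Itgax was lower (-1.08, limma adjusted p = 0.012), with no overlap between genotypes. Their part in the MHC class II levels was not tested. Over all pathway lists, 3 of 92 tested genes were higher and 4 lower, beside 11.1% and 11.0% of all tested genes. The count of lower genes moved from 4 to 2 without Wnk1f/f replicate 2, Wnk1d/d replicate 4 or Wnk1d/d replicate 5, to 1 without Wnk1f/f replicate 4 or Wnk1d/d replicate 3, and to 7 without Wnk1d/d replicate 2.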

How the data were processed

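Whole-uterus RNA of 9 mice was measured by RNA-Seq. The authors made TruSeq RNA libraries, a kit that does not mark strand, aligned paired reads to mm10 with TopHat2 2.0.4 and computed FPKM with Cufflinks (2.0.2 in the submitters' processing notes), and deposited 1 table of FPKM with a column per mouse. The annotation and the fragment counts are not given in the sources used here, so the depth of each library is unknown. Of the columns, 0 belonged to other samples.

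FPKM were taken as log2(FPKM + 1), and the 14728 genes above 1 FPKM on average in at least 1 genotype were fitted with limma 3.58.1 (R 4.3.3; lmFit, eBayes with trend, two-sided, unpaired), with Benjamini-Hochberg adjustment over all of them and a threshold of 0.05. The study's count-based test needs reads and was not used. Exact permutation tests ran over the 126 splits of 4 and 5 libraries. The SD within genotype is the residual SD of that fit. Alternatives were adding 0.1 or 0.01 in place of 1, testing every entry or those above 5 FPKM, median scaling, quantile normalization, fits without trend, with robust estimation and with array weights, a replicate block, a ratio of at least 1.5 and leaving out each library. The fits were tested on simulated data. All 39 members are named, and every library is given for the extreme and most abundant members of each class. Irf7, Zbp1 and Isg15 by library, and H2-Aa, Cd74 and Itgax, were added after their values were seen. Members and lists were chosen with earlier results of these data known. Positions come from GENCODE M21 (mm10), promoters from RefSeq. The same-numbered libraries of the genotypes did not deviate together, so the numbers were not taken as pairs. Results for some pathway genes are not reported here.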

Additional observations from a re-analysis of the deposited data

Results flagged for a closer look

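In 3 of the 106 groups checked, over 53 genes, 1 library stood apart from the others of its genotype by Dixon's criterion, which chance flags in about 1 of 20 groups. Gbp2 read 19.0 FPKM in Wnk1f/f replicate 1, against 30.7 to 33.8 FPKM in the other controls. Tyk2 read 17.1 FPKM in Wnk1d/d replicate 2, against 13.2 to 13.9 FPKM in the other Wnk1d/d uteri. Pias1 read 14.3 FPKM in Wnk1f/f replicate 2, against 15.4 to 15.6 FPKM in the other controls. These are the libraries that were low, high and high for most members.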

How the results depend on the processing

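The count of members past the test was 0 under 18 of 20 alternatives and 1, Bst2 as the higher gene, under array weights and without Wnk1f/f replicate 2, so that leaving out a library gave 0 to 1. The median log2 fold change of the members ran from -0.34 to 0.24 when a library was left out and from -0.06 to 0.03 under the other alternatives. For the type I induced genes leaving out a library gave -0.28 to 0.37, for the GTPases -0.49 to 0.13 and for antigen processing -0.45 to -0.03. Of the pathway genes, 3 higher and 4 lower, requiring a ratio of at least 1.5 left 0 lower, and leaving out a library gave 2 to 4 higher and 1 to 7 lower. With the replicate block, 0 pathway genes were higher and 0 lower, and Wnk1 stood at -0.52 (limma adjusted p = 0.052), Ifne at 2.09 (adjusted p = 0.052), Ifnar1 at -0.39 (adjusted p = 0.086) and Jak2 at 0.54 (adjusted p = 0.074). The same-numbered libraries correlated at -0.09, -0.003, 0.02 and -0.27 in their deviations, none best with its own number. The block spends degrees of freedom, and the cause of the other changes was not tested. Without counts, the part of sequencing depth in the spread is unknown.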
